A study of Mus musculus with 11 samples.

Results

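The genes described are 38 interferon-stimulated effector genes, the genes whose products carry out the antiviral state that interferons induce, measured in organoids of mouse small-intestinal epithelium at late and early passage. They were chosen by symbol as known effectors, leaving out the OAS enzymes, the IRF factors, the nucleic acid sensors and the MHC genes. Ensembl identifiers in the deposited count tables were matched to symbols, and all 38 were found among 37310 gene identifiers. Of these, 32 had enough reads to be tested. RNA was sequenced in bulk from 11 libraries of 2 animals, in a study that, by its design text, asks how long culture and the age of the mouse alter the organoids. By the sample titles, the 6 late libraries came from passages 11, 12 and 13 of mouse_283 and of mouse_285. The 5 early libraries came from passages 2, 3 and 4 of mouse_283 and passages 2 and 4 of mouse_285. Organoids are epithelial cultures that grow from isolated crypts in a gel and hold stem cells and differentiated cells. All libraries, late and early, carried the Lgr5-EGFP-IRES-creERT2 allele, which puts a green fluorescent protein and an inducible Cre under the promoter of the intestinal stem cell gene Lgr5. All were grown in Matrigel with IntestiCult medium and passaged every 7 days, and no label names an interferon or any other agent. Ages of 4 and 24 months stand in the labels without a link to either mouse, and no part of the intestine is given for a library. With 1 library per animal and passage, p-values measure the spread between libraries of 2 animals, and since no batch is given, stage and batch cannot be told apart.

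Interferons of type I, type II and type III bind receptors on the cell surface that signal through Janus kinases (JAK) to transcription factors in the nucleus. A complex that holds STAT2 and IRF9 binds the interferon-stimulated response element (ISRE) in the promoters of many effector genes. In the gut, epithelial cells are known to respond mainly to type III interferon, and intestinal epithelium keeps some of these genes expressed without infection.

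The promoters of 31 of the 38 genes were in the RefSeq promoter table of build GRCm38.p6, matched by symbol. The genes without an entry were Ifi27, Usp18, Mx1, Mx2, Rtp4, Parp9 and Parp14. An ISRE was searched as GAAA, any 2 bases and GAAA, on both strands in the window from 250 bases before to 50 bases after each gene's start. It was present in 13 of the 31 genes, against 3.99% of all 27025 genes in the table. Among the genes that were lower at late passage it was present in 3 of 6, and among the other members in 10 of 25. A gamma-interferon-activated site, searched as TTC, any 3 bases and GAA, was present in 6 of the 31 genes and in 9.55% of all genes, and in 0 of the 6 genes lower at late passage. Matches of both motifs shared bases in Bst2 and Ifitm3. The 3 promoters below are those of the genes that were both lower at late passage and held an ISRE match, shown to let the motif be seen in place. Each runs from 250 bases before to 30 bases after the start of the gene, on the strand of the gene, with the matches in capitals. Apol9b lies at chr15:77728822-77729101 on the plus strand, Lgals9 at chr11:78984895-78985174 on the minus strand and Isg15 at chr4:156200789-156201068 on the minus strand.
Apol9b: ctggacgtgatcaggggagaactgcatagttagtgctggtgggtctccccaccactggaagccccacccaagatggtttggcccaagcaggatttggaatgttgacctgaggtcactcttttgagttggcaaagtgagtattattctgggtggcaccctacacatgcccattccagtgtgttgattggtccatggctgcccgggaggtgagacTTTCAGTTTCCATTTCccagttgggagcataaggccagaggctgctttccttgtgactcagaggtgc
Lgals9: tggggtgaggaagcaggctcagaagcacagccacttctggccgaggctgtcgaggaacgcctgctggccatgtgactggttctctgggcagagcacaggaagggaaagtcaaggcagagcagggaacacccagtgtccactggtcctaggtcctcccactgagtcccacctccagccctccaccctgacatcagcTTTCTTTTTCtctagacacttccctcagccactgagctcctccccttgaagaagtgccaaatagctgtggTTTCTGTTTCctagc
Isg15: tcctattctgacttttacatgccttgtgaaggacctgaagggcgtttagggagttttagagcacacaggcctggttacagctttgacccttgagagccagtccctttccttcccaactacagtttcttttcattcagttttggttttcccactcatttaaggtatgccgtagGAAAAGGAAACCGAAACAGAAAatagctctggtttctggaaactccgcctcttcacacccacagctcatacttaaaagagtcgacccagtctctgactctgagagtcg
Apol9b held 2 overlapping matches, of which the first began 37 bases before the start. Lgals9 held 2 separate matches, of which the first began 55 bases before the start and the other lay just after it. Isg15 held 3 overlapping matches, of which the first began 78 bases before the start. A match describes letters in the window and does not show binding.

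Interferon-stimulated effector genes were lower at late passage in a subset, in which Ifi27, Apol9b, Rtp4, Xaf1, Lgals9 and Isg15 had the smallest p. Of the 32 tested genes, 9 fell and 0 rose in late against early libraries, while 2.34% of all 14172 tested genes fell and 0.706% rose. These calls came from edgeR's quasi-likelihood test with the animal in the model, with Benjamini-Hochberg adjustment over all tested genes and a threshold of 0.05. At an unadjusted p under 0.05, 17 members were lower and 1 was higher, against 23.6% of all tested genes in either direction. DESeq2 called 13 lower, against 5.98% of all genes, and 0 higher, against 3.49%. The fold change was negative in 27 of the 32 and positive in 5, with a median log2 fold change of -0.81, against -0.02 over all tested genes. In 8 of the 32, every late library lay below every early library, which held for 3.51% of all tested genes, and the same 8 stood out before scaling between libraries. The reverse, every late library above every early library, held for 0 members and 2.21% of all genes. In bulk RNA, fewer cells of a type and less RNA per cell cannot be told apart.

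**Figure D1:**
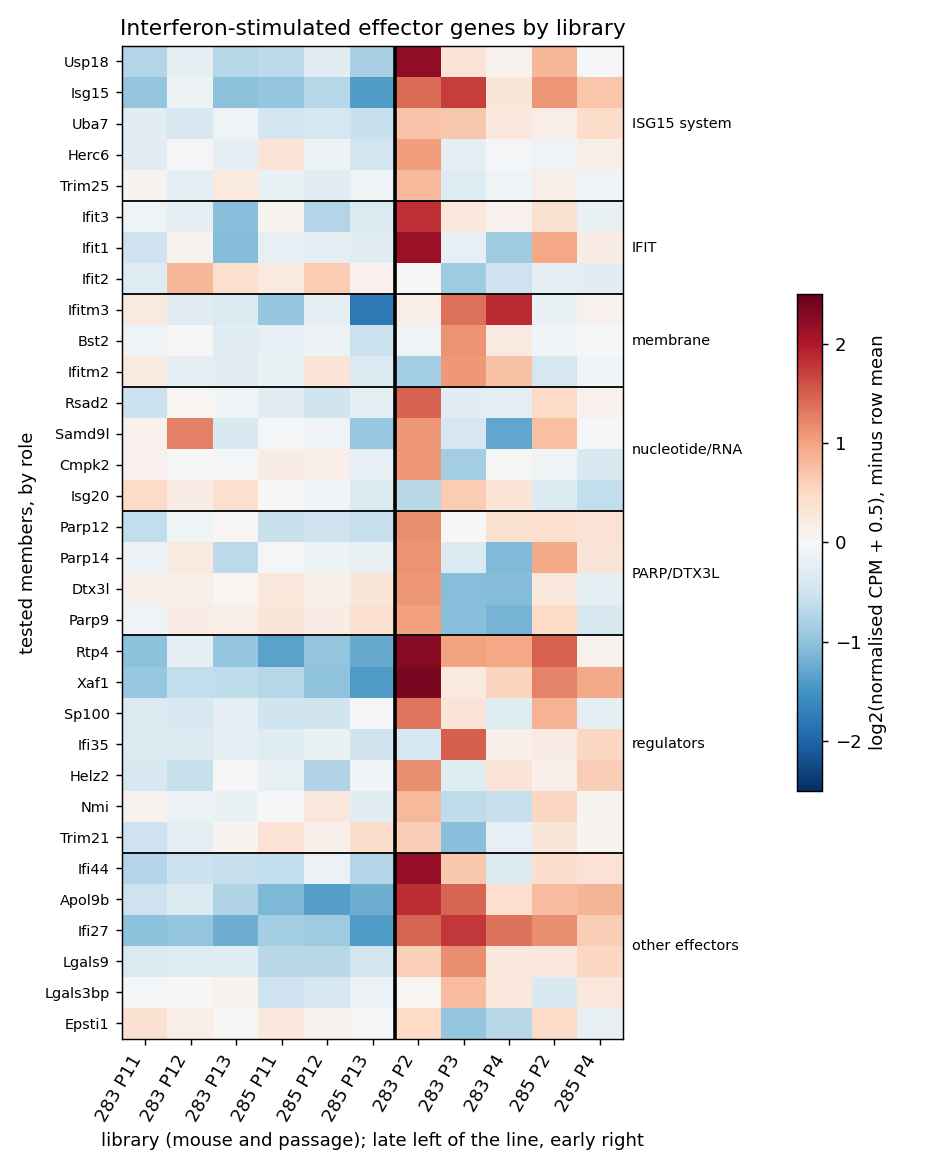
Levels of the 32 tested interferon-stimulated effector genes (rows, by role) in the 11 libraries (columns, late left of the line and early right of it). Colour shows log2 of normalised CPM plus 0.5, minus the mean of the row. The deepest red lies at passage 2 of mouse_283, where 21 of the 32 genes had their highest level.

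Values are given as normalised CPM, which are reads of a gene scaled to a common library size. Per kilobase of exon, the most abundant members were Ifitm2, Lgals9 and Lgals3bp. Ifitm2 averaged 337 CPM per kilobase in late and 425 CPM per kilobase in early libraries. Lgals9 averaged 97.4 CPM per kilobase late and 205 CPM per kilobase early, and Lgals3bp 126 CPM per kilobase late and 167 CPM per kilobase early. Next came Ifitm3, with 23.1 CPM per kilobase late and 59.3 early, Bst2, with 32.3 late and 46.3 early, Trim25, with 18.8 late and 21.9 early, and Ifi27, with 5.26 late and 28.5 early. Isg15, a sensitive marker of interferon signalling in many cells, had only 0.575 CPM per kilobase late and 4.08 CPM per kilobase early. Most of the members that fell were thus low at both stages, with Lgals9, Ifi27 and Uba7 as the exceptions above 5 CPM in every library.

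In the ISG15 system, 3 of 5 members fell. Isg15 (ENSMUSG00000035692.6) encodes a ubiquitin-like protein that is attached to other proteins. It ran from 0.124 to 1.01 CPM in late libraries, with a median of 0.332 CPM, against 3.84, 4.91 and 1.52 CPM at passages 2, 3 and 4 of mouse_283 and 3.00 and 2.14 CPM at passages 2 and 4 of mouse_285. The highest late library, passage 12 of mouse_283, was below the lowest early library, passage 4 of the same animal. The log2 fold change was -2.74 (SE 0.44, adjusted p = 0.0083). Uba7 (ENSMUSG00000032596.7), the enzyme that activates ISG15 for attachment, ran from 5.89 to 8.33 CPM in late libraries, with a median of 6.53 CPM, against 15.0, 14.6 and 10.8 CPM at early passages of mouse_283 and 10.1 and 12.4 CPM in mouse_285. Its groups did not overlap, and its log2 fold change was -0.86 (SE 0.17, adjusted p = 0.0211).

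Usp18 (ENSMUSG00000030107.9), the protease that removes ISG15 and also dampens signalling at the type I receptor, ran from 0.062 to 0.326 CPM in late libraries, with a median of 0.115 CPM. Early libraries had 4.09, 0.755 and 0.541 CPM in mouse_283 and 1.25 and 0.460 CPM in mouse_285. Passage 2 of mouse_283 stood above all other libraries, and the groups did not overlap. The log2 fold change was -2.86 (SE 0.67, adjusted p = 0.0384). The calls of Uba7 and Usp18 depended on single libraries. Uba7 was lost without passage 4 of mouse_285 or without any 1 of the 6 late libraries, with an adjusted p of at most 0.0901. Usp18 was lost without passage 2 or 4 of mouse_285 or any 1 late library, with an adjusted p of at most 0.108.

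Trim25 and Herc6, both ligases of the ISG15 pathway, did not pass the test. Trim25 (ENSMUSG00000000275.9), which also modifies the viral RNA sensor RIG-I, was the most abundant of the 5. It ran from 92.7 to 134 CPM late, with a median of 103 CPM, against 200, 90.6 and 105 CPM early in mouse_283 and 128 and 107 CPM in mouse_285. Apart from passage 2 of mouse_283 the groups overlapped, with a log2 fold change of -0.20 (SE 0.20, adjusted p = 0.517). Herc6, the main ISG15 ligase in mice, ran from 0.186 to 0.713 CPM late and from 0.324 to 1.46 CPM early (log2 fold change -0.67, adjusted p = 0.398).

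**Figure D2:**
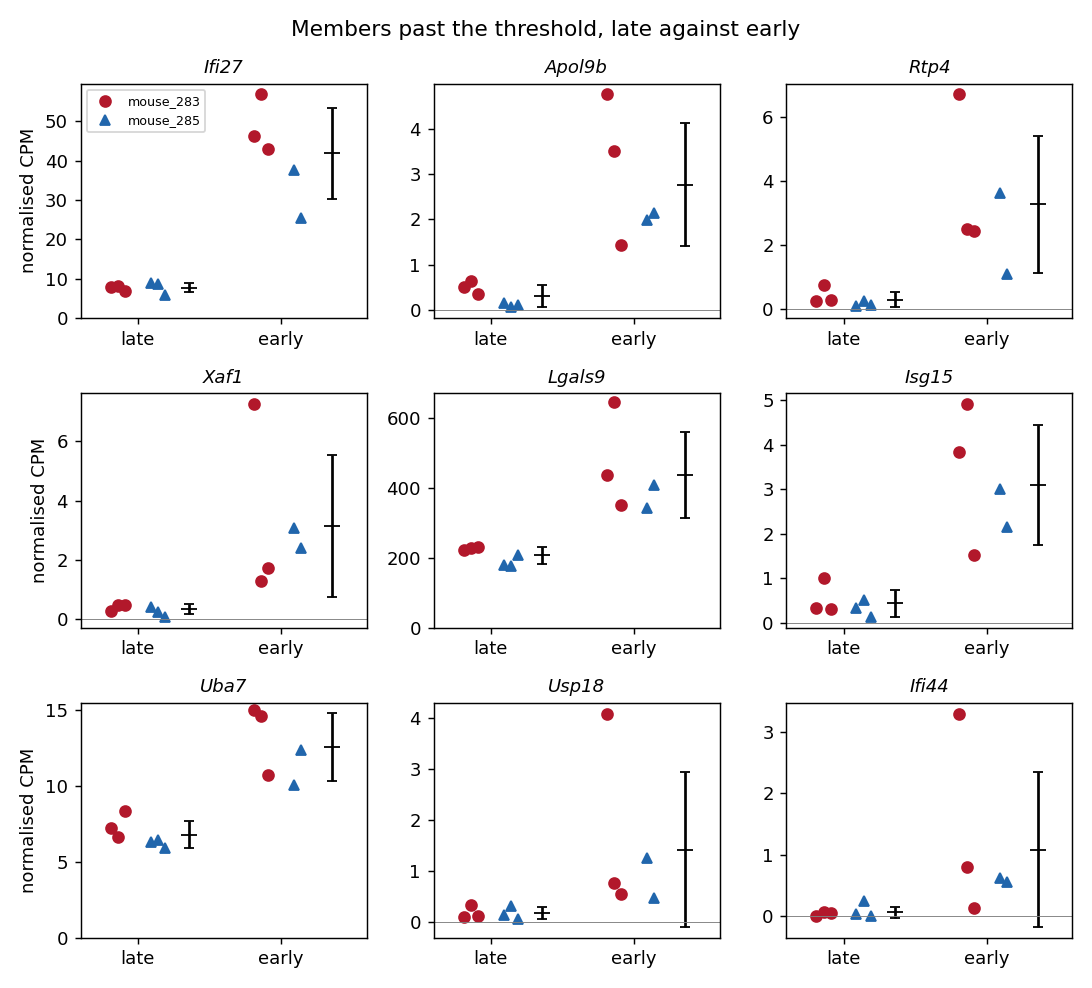
Normalised CPM (vertical axes, linear) in late (left) and early (right) libraries for the 9 members past the threshold, with mouse_283 as red circles, mouse_285 as blue triangles and the mean with 1 SD as a black bar (n = 6 late and n = 5 early). In all panels except Ifi44 every late point lies below every early point.

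None of the 3 IFIT genes passed the test, by edgeR or by DESeq2. All 3 had an unadjusted p under 0.05, as had 23.6% of all tested genes. IFIT proteins bind viral RNA and block its translation. Ifit1 (ENSMUSG00000034459.8) ran from 0.414 to 1.57 CPM late, with a median of 1.12 CPM, against 8.11, 1.19 and 0.541 CPM early in mouse_283 and 3.29 and 1.68 CPM in mouse_285. Passage 2 of mouse_283 and both early libraries of mouse_285 lay above the late range, and passages 3 and 4 of mouse_283 lay inside it (log2 fold change -1.47, SE 0.60, adjusted p = 0.175). Ifit3 ran from 0 to 0.587 CPM late and from 0.408 to 3.17 CPM early (log2 fold change -1.69, adjusted p = 0.182). Its longest transcript shares 51.2% of its 50-base windows with that of the neighbouring copy Ifit3b. Reads of these genes may thus have been split between them or left out.

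Ifit2 moved the other way, with 0.234 to 1.14 CPM late and 0 to 0.427 CPM early. Its log2 fold change of 1.64 did not pass the test (SE 0.61, adjusted p = 0.146). It passed without passage 2 of mouse_283 (log2 fold change 2.04, adjusted p = 0.0292), where 18.5% of all tested genes were higher late, and without a filter on low counts (adjusted p = 0.0445), where 4.48% were higher. Only 91 reads late and 21 reads early stood behind it. Ifit2 was thus the member with the largest positive value, beside 2 relatives with negative ones.

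Of the membrane proteins that restrict virus entry and release, 3 of 4 were tested, and 0 passed by edgeR and 1, Ifitm3, by DESeq2, the gene that also had an unadjusted p under 0.05. Ifitm2 (ENSMUSG00000060591.7), which like its relatives hinders the fusion of enveloped viruses with cell membranes, ran from 179 to 286 CPM late, with a median of 201 CPM. Early libraries had 127, 487 and 385 CPM in mouse_283 and 171 and 220 CPM in mouse_285. The early values surrounded the late ones (log2 fold change -0.26, SE 0.31, adjusted p = 0.593). The sign turned without passages 3 and 4 of mouse_283, to a log2 fold change of 0.41, and after the correction on GC content and length, to 0.02. In the later annotation, 40.9% of the exon bases of Ifitm2 are shared with the gene model Gm45717 on the same strand, which makes its count uncertain.

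Ifitm3 ran from 5.83 to 25.2 CPM late and from 18.9 to 78.9 CPM early, highest at passages 3 and 4 of mouse_283. Its log2 fold change of -1.18 (SE 0.33, adjusted p = 0.0767) passed with DESeq2 (adjusted p = 0.0125), and was -0.65 (adjusted p = 0.21) without these 2 libraries. Bst2, or tetherin, which holds budding virus particles at the cell surface, ran from 22.8 to 33.8 CPM late and from 31.5 to 73.0 CPM early (log2 fold change -0.46, adjusted p = 0.218). Ifitm1 was too low to test, with 24 reads late and 15 reads early.

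The 5 antiviral GTPases were near the limit of detection and none was tested. A limit of 3 counts per library corresponds to 0.104 to 0.198 CPM and covers counting error only. Mx1 (ENSMUSG00000000386.8), which blocks viral replication and is truncated in many laboratory strains, ran from 0.125 to 0.587 CPM late, with a median of 0.284 CPM, against 0.244, 0 and 0 CPM early in mouse_283 and 0.227 and 0 CPM in mouse_285. Its counts summed to 42 reads late and 8 reads early. Mx2 had 15 reads late and 23 early. The guanylate-binding proteins, which attack the vacuoles of intracellular microbes, had no late read for Gbp2 and Gbp3, against 11 early reads for each, and 4 late against 20 early reads for Gbp7. Gbp7 was at 0 at passages 3 and 4 of mouse_283 and passed the low-count filter once they were left out, so its value in that fit is not counted.

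Among the 4 members that act on nucleotides, RNA or translation, none passed the test by edgeR or DESeq2, and 1, Rsad2, had an unadjusted p under 0.05. Samd9l (ENSMUSG00000047735.10), which restrains translation in infected cells, ran from 7.69 to 37.6 CPM late, with a median of 14.7 CPM, against 33.0, 11.4 and 5.96 CPM early in mouse_283 and 26.1 and 15.1 CPM in mouse_285. Its highest value was a late one, at passage 12 of mouse_283, and the groups overlapped (log2 fold change -0.12, SE 0.45, adjusted p = 0.88). Rsad2, or viperin, which makes a chain-terminating nucleotide, ran from 0.0468 to 0.326 CPM late and from 0.162 to 1.71 CPM early (log2 fold change -1.65, adjusted p = 0.181). It passed without passages 3 and 4 of mouse_283 (log2 fold change -2.35, adjusted p = 0.0304). Cmpk2, a mitochondrial nucleotide kinase encoded next to Rsad2, ran from 0.807 to 1.22 CPM late and from 0.324 to 2.68 CPM early (log2 fold change -0.02, adjusted p = 0.981). Isg20, an RNA-degrading exonuclease, ran from 6.58 to 12.2 CPM late and from 5.12 to 13.6 CPM early (log2 fold change 0.26, adjusted p = 0.492).

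Of the 4 genes for ADP-ribosylation, none passed by edgeR and 1, Parp12, by DESeq2, which also had an unadjusted p under 0.05. Dtx3l (ENSMUSG00000049502.10), a ubiquitin ligase that works in a complex with PARP9, ran from 13.0 to 15.8 CPM late, with a median of 13.9 CPM, against 27.4, 5.77 and 5.74 CPM early in mouse_283 and 15.6 and 10.7 CPM in mouse_285. Late libraries were tightly grouped between the extremes of the early ones (log2 fold change 0.13, SE 0.36, adjusted p = 0.837). Parp9 was likewise most spread among early libraries, with 10.1 to 14.5 CPM late and 4.62 to 22.8 CPM early (log2 fold change 0.15, adjusted p = 0.819). These genes share 458 exon bases on opposite strands, and the counts do not use strand, so part of their reads cannot be assigned to either. Parp12, which stops translation when it is induced, ran from 5.52 to 8.95 CPM late and from 8.79 to 20.1 CPM early. Only passage 13 of mouse_283 reached into the early range (log2 fold change -0.91, SE 0.23, adjusted p = 0.0533), and the gene passed with DESeq2 (adjusted p = 0.00365). Parp14 ran from 2.02 to 4.14 CPM late and from 1.34 to 8.11 CPM early (log2 fold change -0.60, adjusted p = 0.341).

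Of 7 regulators of transcription, protein handling and cell death, 2 fell, and 4 with DESeq2. Rtp4 (ENSMUSG00000033355.5), a chaperone of receptor proteins, ran from 0.0838 to 0.750 CPM late, with a median of 0.242 CPM, against 6.71, 2.48 and 2.42 CPM early in mouse_283 and 3.63 and 1.07 CPM in mouse_285. The groups did not overlap, and the log2 fold change was -3.44 (SE 0.51, adjusted p = 0.00523). Xaf1 (ENSMUSG00000040483.9), which promotes apoptosis by binding an inhibitor of caspases, ran from 0.062 to 0.489 CPM late, with a median of 0.350 CPM. Early libraries had 7.26, 1.29 and 1.73 CPM in mouse_283 and 3.06 and 2.40 CPM in mouse_285. Again the groups did not overlap, and passage 2 was the highest early library in both animals (log2 fold change -3.17, SE 0.51, adjusted p = 0.00807).

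Helz2 (ENSMUSG00000027580.10), a helicase that acts as a transcriptional co-activator, was the most abundant of the 7. It ran from 34.9 to 59.8 CPM late, with a median of 48.6 CPM, against 133, 47.9 and 75.5 CPM early in mouse_283 and 64.9 and 91.0 CPM in mouse_285. Of the early libraries, passage 3 of mouse_283 alone lay inside the late range. The gene did not pass by edgeR (log2 fold change -0.77, SE 0.25, adjusted p = 0.111) and passed with DESeq2 (adjusted p = 0.0447). Sp100, a component of nuclear bodies, had 7 reads in all late and 46 reads in all early libraries (log2 fold change -3.02, SE 0.92, adjusted p = 0.0939). It likewise passed with DESeq2 (adjusted p = 0.029). Ifi35 ran from 11.1 to 14.1 CPM late and from 11.6 to 45.9 CPM early (log2 fold change -0.86, adjusted p = 0.129). Its binding partner Nmi ran from 3.41 to 5.24 CPM late and from 2.53 to 7.68 CPM early (log2 fold change -0.20, adjusted p = 0.679). Trim21, an antibody receptor and ubiquitin ligase of the cytosol, ran from 2.25 to 4.84 CPM late and from 1.40 to 5.49 CPM early (log2 fold change -0.03, adjusted p = 0.953).

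Smaller parts of the exons are shared with other gene models in Rtp4 (13.9%), Herc6 (13.7%), Ifi35 (16.8%), Usp18 (4.44%) and Uba7 (3.48%), and reads there may have been assigned to neither gene.

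The remaining effectors held 4 of the 9 genes that fell. Ifi27 (ENSMUSG00000064215.7), a small hydrophobic protein of mitochondria and other membranes, had the smallest p of all members. It ran from 5.96 to 8.97 CPM late, with a median of 7.95 CPM, against 46.3, 57.0 and 43.1 CPM early in mouse_283 and 37.5 and 25.4 CPM in mouse_285. Late libraries averaged 7.72 ± 1.14 CPM (SD, n = 6) and early libraries 41.9 ± 11.6 CPM (SD, n = 5), with a wide gap between the groups and a log2 fold change of -2.38 (SE 0.21, adjusted p = 0.00036). Lgals9 (ENSMUSG00000001123.9), a secreted sugar-binding galectin, ran from 178 to 233 CPM late, with a median of 215 CPM. Early libraries had 437, 647 and 351 CPM in mouse_283 and 343 and 410 CPM in mouse_285. The late mean of 208 ± 24.6 CPM (SD, n = 6) stood against an early mean of 438 ± 124 CPM (SD, n = 5), with no overlap and a log2 fold change of -1.04 (SE 0.17, adjusted p = 0.00807).

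Apol9b (ENSMUSG00000068246.4), of the mouse apolipoprotein L family, ran from 0.0624 to 0.652 CPM late, with a median of 0.265 CPM, against 4.76, 3.51 and 1.44 CPM early in mouse_283 and 1.98 and 2.14 CPM in mouse_285. The groups did not overlap (log2 fold change -3.12, SE 0.42, adjusted p = 0.00265). Its longest transcript shared no 50-base window with that of its relative Apol9a, and other transcripts were not compared. Ifi44 (ENSMUSG00000028037.7), a cytoplasmic protein of the antiviral response, ran from 0 to 0.250 CPM late, with a median of 0.0468 CPM, against 3.29, 0.809 and 0.144 CPM early in mouse_283 and 0.623 and 0.562 CPM in mouse_285. Passage 12 of mouse_285 lay above passage 4 of mouse_283, so the groups overlapped by these libraries. The log2 fold change of -3.83 (SE 0.92, adjusted p = 0.0429) rested on 8 reads late and 95 reads early. The call was lost without passage 3 of mouse_283, without passage 2 or 4 of mouse_285, or without any 1 late library other than passage 12 of mouse_285, with an adjusted p of at most 0.134.

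Lgals3bp (ENSMUSG00000033880.5), a secreted glycoprotein that binds galectins, ran from 281 to 423 CPM late, with a median of 376 CPM, against 415, 683 and 486 CPM early in mouse_283 and 308 and 488 CPM in mouse_285. The groups overlapped, and the log2 fold change of -0.37 did not pass (SE 0.18, adjusted p = 0.221). Epsti1 ran from 14.3 to 19.4 CPM late and from 7.33 to 21.2 CPM early (log2 fold change 0.21, adjusted p = 0.617). The most abundant members of the whole set, per kilobase, thus split between 1 that fell, Lgals9, and 2 that did not pass, Ifitm2 and Lgals3bp.

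**Figure D3:**
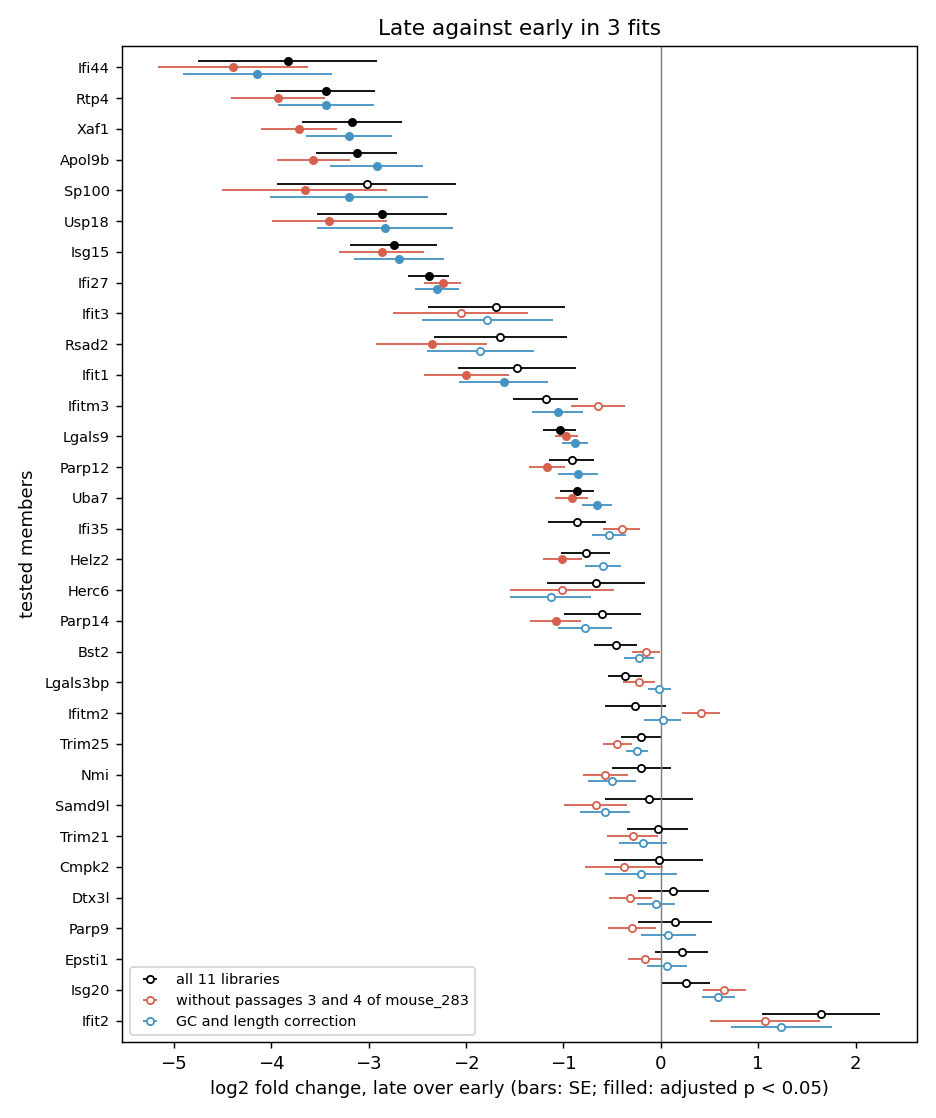
Log2 fold change, late over early, of the 32 tested members with its SE in all 11 libraries (black), without passages 3 and 4 of mouse_283 (red) and after correction on GC content and length (blue), where filled points passed the threshold. The number of these members past it was 9, 15 and 13 in these fits, and Ifit2 lies farthest to the right in each.

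Early libraries differed among themselves. Passage 2 of mouse_283 held the highest level of 21 of the 32 tested members, while it held the highest level of 17.2% of all tested genes. That library also had the largest share of reads without a feature, 11.7% against 3.77% to 6.64% in the others. Its slope on GC content, described below, was the lowest, at -0.407 log2 units per 10 points. Passage 3 of mouse_283 was highest for 8 of the 32 members, against 31.2% of all tested genes. Passage 4 of that animal was highest for Ifitm3, against 9.09% of all tested genes. Its passage 12 was highest for Ifit2 and Samd9l, against 10.1%. Without passage 2 of mouse_283, 13 members were lower and 2, Dtx3l and Ifit2, were higher late, against 16.2% and 18.5% of all tested genes, and the members' median log2 fold change was -0.52. All 9 genes that fell with 11 libraries were among these 13. A slope on passage number within stage, with stage and animal in the model, passed for 0 members with edgeR and with DESeq2. At an unadjusted p under 0.05 the slope reached 7 members, Usp18, Ifit1, Ifit3, Samd9l, Parp14, Nmi and Epsti1, all negative, against 6.43% of all tested genes. Ifit3 had the steepest, with a log2 change of -0.94 per passage (SE 0.32, adjusted p = 0.596). All 7 were lower at passages 3 and 4 than at passage 2 of mouse_283, with log2 ratios from -1.32 (Epsti1) to -2.66 (Ifit1). The part of the GC dependence of these libraries, described below, in the slopes was not tested.

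**Figure D4:**
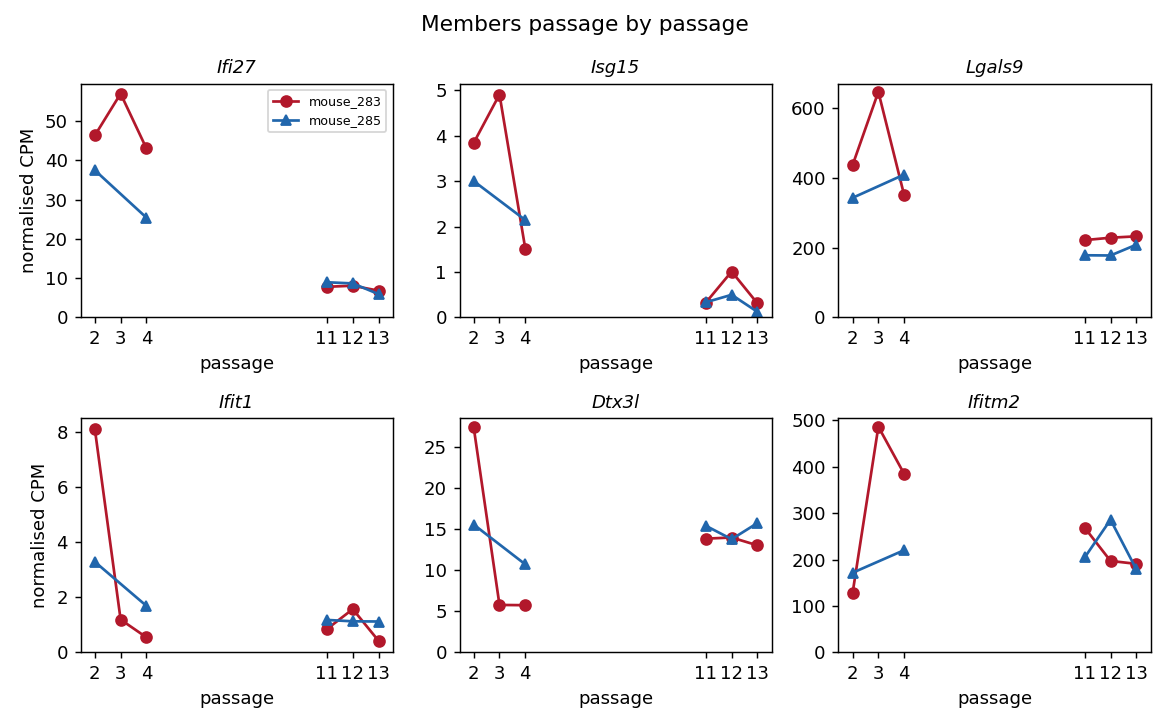
Normalised CPM (vertical axes, linear) of 6 members by passage number for mouse_283 (red circles) and mouse_285 (blue triangles). Ifi27, Isg15 and Lgals9 are low at passages 11 to 13 in both animals, while Ifit1 and Dtx3l in mouse_283 are highest at passage 2 and within or below their late range at passages 3 and 4, and Ifitm2 is highest at passage 3.

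At passages 3 and 4 of mouse_283, levels depended on the base composition of the gene more than elsewhere. The slope on GC content over all tested genes was 0.974 and 0.778 log2 units per 10 points there, and between -0.407 and 0.199 in the other 9 libraries. The members followed this trend. Of the 16 members with the lower GC content, 16 were lower at passages 3 and 4 than at passage 2 of mouse_283, with a median log2 ratio of -1.68. Of the 16 members with the higher GC content, 8 were lower, with a median of -0.06. Across the 32 members, the ratio and the GC content had a Spearman's rho of 0.68, as a description of genes that share these 3 libraries. Without passages 3 and 4 of mouse_283, 15 of the 32 members fell, against 3.4% of all tested genes. That fit kept passage 2, where 21 of the 32 members were highest, as the only early library of mouse_283. After correction on GC content and length, with all libraries kept, 13 members fell, against 4.14%. The 9 genes that fell with 11 libraries were among those that fell in both. Rsad2, Parp14 and Helz2 joined them in the fit without these libraries alone, Ifitm3 after the correction alone, and Ifit1, Parp12 and Sp100 in both.

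**Figure D5:**
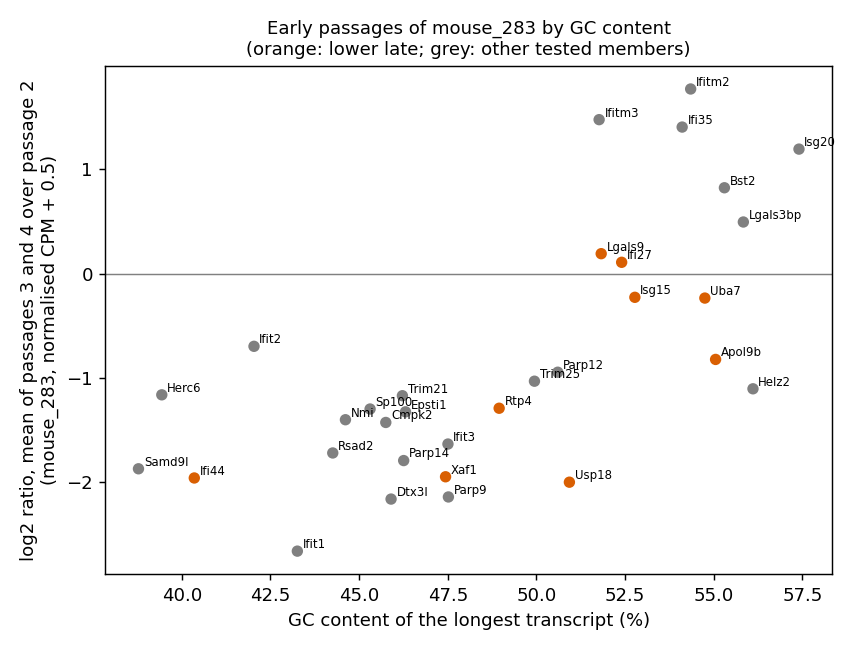
Log2 ratio of the mean of passages 3 and 4 over passage 2 of mouse_283 (vertical axis, normalised CPM plus 0.5) against the GC content of the gene in percent (horizontal axis) for the 32 tested members, with the 9 that were lower late in orange. All 16 members of lower GC content lie below 0, and the 8 above 0 have a GC content over 50%.

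For all 9 genes that fell, late libraries lay below early libraries in each animal. In mouse_283, 3 members passed, Ifi27 with a log2 fold change of -2.68 (SE 0.27, adjusted p = 0.00192), Apol9b with -2.62 (SE 0.50, adjusted p = 0.0256) and Rtp4 with -3.14 (SE 0.67, adjusted p = 0.0446), against 1.09% of all tested genes. In mouse_285, 0 members and 0 genes in all passed with edgeR, while 9 members had an unadjusted p under 0.05, against 5.38% of all genes, and DESeq2 called 5 members, against 0.353% of all genes. There Ifi27 had a log2 fold change of -1.997 (SE 0.28, adjusted p = 0.0651), Apol9b of -4.01 (SE 0.63, adjusted p = 0.0673) and Isg15 of -2.98 (SE 0.70, adjusted p = 0.338). Late libraries lay below early ones in each animal for these 9 members and above in each for 0, against 5.44% and 3.99% of all tested genes. The difference between the animals' fold changes, the interaction, passed for 0 members with edgeR and with DESeq2, and 0 had an unadjusted p under 0.05, against 2.13% of all genes.

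These counts moved with single libraries. Without passages 3 and 4 of mouse_283, 17 members fell and 1, Isg20, rose in that animal, against 3.35% and 3.02% of all genes, and 7 fell in mouse_285, against 1.57%. The 7 were Apol9b, Ifi27, Isg15, Lgals9, Parp12, Rtp4 and Xaf1. For mouse_283 that fit kept passage 2, where 21 of the 32 members were highest, as the only early library. The spread among early libraries of mouse_283 could thus not be measured, and no conclusion is drawn from the counts in that animal. In mouse_283 without its passage 2, 12 members fell and 5, Dtx3l, Epsti1, Ifit2, Parp9 and Samd9l, rose, in a fit that called 25.6% of all genes lower and 29.2% higher. Without its passage 4, 6 members fell, against 0.897% of all genes. The count was 1 without its passage 3, 11, 12 or 13, and likewise without passage 2 or 13 of mouse_285, against 0.205% to 0.707% of all genes. In mouse_285 the count was 4, 1 and 2 without passages 2, 3 and 4 of mouse_283, which share the estimate of the spread, against 0.278%, 0.0355% and 0.0427% of all genes. Without passage 2 of mouse_283 the interaction passed for 4 members, with a log2 difference, mouse_285 minus mouse_283, of -1.05 for Dtx3l, -1.14 for Epsti1, -2.09 for Samd9l and 1.18 for Ifitm2. In that fit 14.5% of all tested genes had a more negative and 1.94% a more positive change in mouse_285.

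Levels in mouse_285 against mouse_283 at matched stage differed past the threshold in 0 members with edgeR and with DESeq2, while 0.0776% of all genes were lower in mouse_285. At an unadjusted p under 0.05, 3 members were lower in mouse_285, against 5.15% of all genes in either direction. These were Ifitm3, with a log2 fold change of -1.04 (SE 0.34, adjusted p = 0.543), Apol9b, with -1.17 (SE 0.42, adjusted p = 0.645), and Isg20, with -0.61 (SE 0.25, adjusted p = 0.794). With 1 animal behind each, this compares culture lines and not ages.

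Upstream of the effectors, reads for interferons were nearly absent at both stages. Of 11 listed interferon genes 8 were found and none could be tested, with Ifnb1 and Ifna2 at 0 in every library. The highest count for 1 gene in 1 library was 6 reads, for the epithelial interferon Ifnk. Receptors and JAK kinases were expressed at both stages and 0 of 9 passed by edgeR or DESeq2. By edgeR, the kinase gene Tyk2 alone had an unadjusted p under 0.05, as had 23.6% of all tested genes. Without passage 2 of mouse_283, 1 of the 9 fell and 2 rose, in the fit that called 16.2% and 18.5% of all genes. Tyk2 had a log2 fold change of -0.39 (adjusted p = 0.157) and Jak2 of 0.72 (adjusted p = 0.237). Of the receptor subunits, Ifnar2 had a log2 fold change of -0.34 (adjusted p = 0.295), and Ifnlr1, of the type III receptor, averaged 15.5 CPM late and 16.8 CPM early.

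Of 10 interferon transcription factors, 2 fell and 0 rose, against 2.34% and 0.706% of all tested genes. Irf7, which amplifies the response, ran from 5.99 to 12.7 CPM late and from 27.4 to 52.1 CPM early (log2 fold change -2.08, SE 0.20, adjusted p = 0.000466). Irf9, the DNA-binding partner of STAT2 at the ISRE, ran from 11.6 to 15.5 CPM late and from 28.5 to 37.1 CPM early (log2 fold change -1.25, SE 0.15, adjusted p = 0.00139). Stat2 averaged 34.6 CPM both late and early, without passing the test. Without passage 2 of mouse_283, 3 of the 10 factors fell and 1 rose, in the fit that called 16.2% and 18.5% of all genes. Of 7 negative regulators of the pathway, 0 passed by edgeR and 1 by DESeq2, with 1 at an unadjusted p under 0.05, the phosphatase gene Ptpn6 (log2 fold change -0.64, adjusted p = 0.102).

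The libraries showed epithelial markers throughout, with summed levels of the 9 epithelial genes between 7664 and 10603 CPM late and between 8754 and 17794 CPM early. Of differentiated epithelial types, markers were listed for enterocytes and tuft cells only, and part of these were lower late. The 10 enterocyte markers summed to between 1877 and 2742 CPM late and between 3202 and 4325 CPM early. Of the 10, 5 fell, against 2.34% of all tested genes, and the fold change was negative in 7 and positive in 3. The 8 tuft cell markers summed to between 6.20 and 12.4 CPM late and between 21.5 and 28.5 CPM early, and 5 of 7 tested fell. That count of tuft markers was 4 with RLE scaling, 6 with DESeq2 and 3 without passages 3 and 4 of mouse_283. The 38 members together summed to between 979 and 1220 CPM late and between 1269 and 2278 CPM early, without overlap. Most of this sum came from Lgals3bp, Ifitm2 and Lgals9, of which Lgals9 alone fell. At passage 11 of mouse_283 they had 390, 269 and 222 CPM of 1220 CPM. The part of these epithelial types in the members' change was not tested.

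Markers of cells outside the epithelium were low. The 14 leukocyte markers summed to between 11.0 and 23.4 CPM late and between 16.1 and 30.3 CPM early, with Cd3g, Cd8a and Nkg7 at 0 in every library and Ptprc, the pan-leukocyte gene, at no more than 0.0326 CPM. The 8 fibroblast markers summed to between 0.620 and 2.42 CPM late and between 1.93 and 4.53 CPM early, with Dcn, Lum and Thy1 at 0. The 6 endothelial markers summed to between 1.17 and 2.12 CPM late and between 1.47 and 2.60 CPM early, with Kdr and Emcn at 0.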

How the data were processed

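The authors deposited a table of read counts per gene for each of the 11 libraries, without regard to strand and for each strand. Trimming with Trimmomatic and alignment to build mm9 with STAR are named in the submitters' processing notes. Passage numbers follow the sample titles; the names of the count tables carry a passage number higher by 1 for every library. Tool versions and the annotation release are not given in the sources used here. The first strand column held 50.0% to 50.2% of the stranded reads, so the unstranded counts were used. The summary lines (unmapped 4.76% to 10.2%, multimapping 5.92% to 8.78%, no feature 3.77% to 11.7%, ambiguous 3.11% to 4.03% of reads) were left out. Gene reads ran from 15114132 to 28949911 per library, with 16535 to 19229 genes detected.

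Symbols, exon lengths and GC content came from GENCODE M21, an annotation of a later build, and 32620 of the 37310 identifiers had a symbol. Counts were analysed in R 4.3.3 with edgeR 4.0.16 and limma 3.58.1. Genes were filtered with filterByExpr by stage and animal, which left 14172, scaled by TMM and given edgeR's two-sided quasi-likelihood test. P-values were adjusted over all tested genes by Benjamini-Hochberg, with a threshold of 0.05. The SE is the size of the log2 fold change divided by the square root of F. The procedure was tested on simulated counts with known changes, drawn independently for each library and without GC dependence or outlying libraries. How it performs on libraries with those features was not tested. The fit of late against early held the animal as a term, since each animal gave both stages. Deviations from the group means had a median correlation across stages of 0.11 within an animal and -0.14 between animals. Further models held stage by animal, the animal at matched stage, and a slope on passage.

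Alternatives were DESeq2 1.42.0, RLE scaling, no low-count filter, a filter of 5 CPM in 5 libraries, no animal term, a spline correction on GC content and length (5 degrees of freedom), fits without passages 3 and 4 of mouse_283, and leaving out each library. Values in every library are given for members past the threshold and for the most abundant member of each role group, and for pathway lists up to 4 genes with the smallest p. Ifnk, Ifnlr1 and Stat2 are named outside this rule and were chosen after their values were seen. The members, lists, rules and alternatives were chosen with earlier results of these data known. Values of 1 gene of the transcription factor list are not reported here.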

Additional observations from a re-analysis of the deposited data

Results flagged for a closer look

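In 9 of 64 groups checked, 1 library of a member lay far from the other libraries of its stage. The rule flags about 1 in 20 independent groups by chance. These groups share the same libraries, so the 9 are no test of an excess. Of the 9, 5 were early values at passage 2 of mouse_283. There Usp18 stood at 4.09 CPM against at most 1.25 CPM in the other early libraries, Herc6 at 1.46 CPM against 0.562, Ifit3 at 3.17 CPM against 0.850, Parp12 at 20.1 CPM against 11.9 and Ifi44 at 3.29 CPM against 0.809. At passage 3 of mouse_283, Bst2 stood at 73.0 CPM against at most 39.3 CPM in the other early libraries. Among late libraries, passage 12 of mouse_283 had 37.6 CPM of Samd9l, against at most 16.5 CPM in the others, and 0.750 CPM of Rtp4, against 0.259. Passage 12 of mouse_285 had 0.250 CPM of Ifi44, against at most 0.0652 CPM. With all 11 libraries, no member was called by the interaction of stage and animal.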

How the results depend on the processing

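Beside each count stands the share of all tested genes called in the same fit. The number of members lower late, 9 (2.34%), was 10 with RLE scaling (2.22%), 13 with DESeq2 (5.98%) and 13 after GC and length correction (4.14%). It was 16 with no low-count filter (3.26%). Without passages 3 and 4 of mouse_283 it was 15 among the 32 (3.4%), with Gbp7 not counted. With the 5 CPM filter, which left 16 members, it was 3 (1.89%). When 1 library was left out it was 6 to 13 (0.916% to 16.2%, highest without passage 2 of mouse_283). In the fit with no replicate block, without the animal as a term, it was 9 (2.24%), and this changed no call. Members higher late, 0 (0.706%), were 1 with no filter (4.48%) and 0 to 2 leaving out 1 library (0.249% to 18.5%). Within mouse_283 the count of 3 (1.09%) was 10 with DESeq2 (3.27%), 7 after GC correction (2.62%) and 11 with no filter (2.21%). It was 1 with the 5 CPM filter (0.729%) and 1 to 12 leaving out 1 library (0.205% to 25.6%). The fit without passages 3 and 4, which leaves 1 early library in that animal, is left out of this comparison. Within mouse_285 the count of 0 (0%) was 5 with DESeq2 (0.353%), 1 after GC correction (0.131%), 5 with no filter (0.285%), 7 without passages 3 and 4 of mouse_283 (1.57%), and 0 to 4 leaving out 1 library (0% to 0.278%). The interaction passed for 0 to 4 members leaving out 1 library (0% to 14.5% lower and 0% to 1.94% higher). The 4 came without passage 2 of mouse_283, where these shares were highest. The difference between animals passed for 1 member with no filter (0.592% lower). Apart from the 5 CPM filter, Apol9b, Ifi27, Isg15, Lgals9, Rtp4 and Xaf1 fell in all 17 alternatives. The cause of these shifts was not tested.

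Signs turned only for members that did not pass. Without passages 3 and 4 of mouse_283 the log2 fold change was 0.41 for Ifitm2, -0.30 for Parp9, -0.31 for Dtx3l and -0.16 for Epsti1. After GC correction it was 0.020 for Ifitm2 and -0.049 for Dtx3l. With no low-count filter it was 0.030 for Cmpk2 and 0.014 for Trim21, and with no replicate block 0.035 for Trim21. Leaving out 1 library, it ran from -0.30 to 0.0045 for Trim25, from -0.22 to 0.50 for Cmpk2, from -0.49 to 0.23 for Samd9l, from -0.038 to 0.71 for Parp9, from -0.051 to 0.69 for Dtx3l, from -0.18 to 0.27 for Trim21 and from -0.34 to 0.13 for Nmi. Depth limits the members under 1 CPM, where a few reads decide a level.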

Other observations

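Relatives of the members that are not in the set moved in part with them. Of 19 listed, 15 were found and 8 were tested, of which 2 fell and 0 rose, and 1 fell with RLE scaling. Apol9a, the relative of Apol9b, ran from 0 to 0.776 CPM late and from 0.562 to 3.96 CPM early (log2 fold change -3.19, SE 0.56, adjusted p = 0.0109). Ifi27l2b, a relative of Ifi27, ran from 170 to 219 CPM late and from 243 to 481 CPM early (log2 fold change -0.73, SE 0.18, adjusted p = 0.0447). This call was lost with RLE scaling, without passage 4 of mouse_283, without passage 2 or 4 of mouse_285 and without any 1 late library, with an adjusted p of at most 0.126. It was far more abundant than Ifi27 in reads and changed by a smaller log2 value. Parp10 ran from 18.9 to 24.3 CPM late and from 27.98 to 56.2 CPM early, without overlap (log2 fold change -0.82, adjusted p = 0.0568). Ifit1bl1, a relative of Ifit1, ran from 0.807 to 2.38 CPM late and from 0.180 to 1.46 CPM early (log2 fold change 1.02, adjusted p = 0.221), with the sign of Ifit2 and not of Ifit1.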
